A study of Macaca mulatta with 28 samples.

Results

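AMPA and kainate receptors are the ion channels that carry most fast excitatory signals between neurons, and their subunits are encoded by the GRIA genes (AMPA) and the GRIK genes (kainate). Of the 9 subunit genes looked for by name, 7 had a row in the gene table of 15521 genes and are described here: GRIA1, GRIA2, GRIA3 and GRIA4, and GRIK1, GRIK2 and GRIK4. GRIK3 and GRIK5 were not analysed here. The exon table listed 112 exons of these 7 genes among 156345 exons, and all 7 genes and 110 of the 112 exons passed the filter on low values.

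The RNA came from a dissected tissue block around the CeA, the central nucleus of the amygdala, which takes part in stress, fear and reward, of 28 male rhesus monkeys with 1 library each. All of them had 90 days of induction on 4% (w/v) ethanol and then drank it by choice for 22 h a day over 12 months, and animals without ethanol were not analysed here. By intake the labels call 10 of them LD (low), 5 BD (binge), 7 HD (heavy) and 6 VHD (very heavy). BD stands for 2 g/kg or more on at least 55% of days with a blood ethanol of 80 mg/dl reached in each year, HD for 3 g/kg or more on at least 20% of days, and VHD for a mean daily intake above 3 g/kg with at least 10% of open access days above 4 g/kg, while LD animals met no such definition. HD and VHD animals are also grouped as heavy (13) against LD and BD animals as low (15). The animals belonged to 4 cohorts that differed in age when drinking began: cohort 7a (8 animals, 4.18 years), cohort 5 (7 animals, 5.63 years), cohort 7b (5 animals, 5.69 years) and cohort 4 (8 animals, 8.24 years). Cohort 5 held 3 HD and 4 VHD animals and no LD or BD animal, so heavy and low drinkers met in cohorts 7a, 7b and 4, and VHD and LD animals met only in cohort 7a. After open access the animals were 5.7 years old in cohort 7a, 7.15 in cohort 5, 7.18 in cohort 7b and 9.98 in cohort 4. Cohort, age and whatever else differed between cohorts cannot be told apart.

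Depth ranged from 1910514 to 25928489 reads over gene exons with a median of 16444833. The 3 shallowest libraries all came from cohort 4, namely replicate 1 of BD (1910514), of LD (6474295) and of HD (7412823). Values are normalized reads, the reads of a gene multiplied by the upper-quartile factor of its library, and 3 reads corresponded to 1.82 to 24.1 normalized reads. GAD2, which makes GABA in the inhibitory neurons of the CeA, was present in every block at 2528 to 10540 normalized reads. Markers of neighbouring tissue also varied: the cholinergic gene CHAT ranged from 0 to 1687 and the cortical gene TBR1 from 0 to 694. In such blocks, fewer cells of a type and less RNA per cell cannot be told apart.

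AMPA receptors are tetramers. Their GRIA2 subunit, once its transcript is edited by an ADAR enzyme, keeps calcium out of the channel, whereas channels without it let calcium through. Each GRIA transcript also carries one or the other of a pair of alternative exons, called flip and flop, that set how fast the channel desensitizes. Among kainate subunits, GRIK1 and GRIK2 can form channels alone, while GRIK4 makes a high-affinity subunit that works only together with them. In the CeA, AMPA receptors carry the inputs from the basolateral amygdala and the brain stem.

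The genes were compared with each other as normalized reads per kilobase of listed exon. GRIA2 had the highest level at 2246 ± 473 per kilobase (SD, n = 28), followed by GRIA1 at 1643 ± 220, GRIA3 at 765 ± 283, GRIK2 at 341 ± 84.3, GRIA4 at 337 ± 81.4, GRIK1 at 141 ± 40.7 and GRIK4 at 110.4 ± 25.3. GRIA2 was above GRIA1 in 27 of 28 libraries, GRIA1 above GRIA3 in 28, GRIA3 above GRIK2 in 27 and GRIA4 above GRIK1 in 28. GRIK2 and GRIA4 were not separated, with GRIK2 the higher in 16 of 28 libraries, and GRIK1 was above GRIK4 in 20 of 28. The summed AMPA level per kilobase was 4.42 to 12.3 times the summed level of the 3 kainate genes, with a median ratio of 8.74. The GRIA4 rows ended before the alternative exon pair, and only the listed exons enter these levels. Its last listed exon, 1631 of 3255 bases, had 157 normalized reads per kilobase, 0.465 times the level of the gene. The last exon of GRIK2, 1724 of 4558 bases, had 255, or 0.748 times. Over the table, 2633 exons of at least 1000 bases had a median of 0.704 times. The longest exons of GRIK1 and GRIK4 had 579 and 357 bases, so levels and shares per kilobase also depend on which exons are listed.

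Relative to its mean, the share of the AMPA sum varied less in GRIA2 and GRIA1 than in GRIA3 and GRIA4. GRIA2 made up 44.6 ± 2.77% of the AMPA sum per kilobase (SD, n = 28) and GRIA1 33.3 ± 3.31%. GRIA3 made up 15 ± 3.78% and GRIA4 7.11 ± 2.78%. The GRIA4 share ranged from 2.89% in HD replicate 5 to 13.6% in VHD replicate 5, and HD replicate 5 was also the block with the highest GRIA3 share, 25.8%. The lowest GRIA2 share, 36.8%, was that of VHD replicate 4. Between animals GRIA1 varied least, with a coefficient of variation of 13.4% and a highest value 1.77 times the lowest. GRIA3 varied most, with 37.0% and 4.83 times, and GRIK1 followed with 28.9% and 4.76 times.

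Heavy against low drinkers is the broadest contrast the categories allow, and no subunit gene was called in it. The table as a whole gave no call either: of 13022 genes tested by limma with cohort as a term, 0% had an adjusted p below 0.05 and 4.18% (544) an unadjusted one, while edgeR called 0 genes and DESeq2 called 1 that was no subunit gene. The heavy animals averaged 9244 ± 1570 and the low animals 9467 ± 942 normalized reads of GRIA1 (SD, n = 13 and 15, here and in the next sentences). GRIA2 averaged 13736 ± 3804 in heavy and 14327 ± 2070 in low drinkers. GRIA3 averaged 4028 ± 1857 in heavy and 4085 ± 1177 in low drinkers, and GRIA4 1108 ± 281 in heavy and 1087 ± 260 in low drinkers. These means differed by far less than their SDs.

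The kainate genes gave a similar picture. GRIK1 averaged 447 ± 118 normalized reads in heavy and 461 ± 146 in low drinkers. GRIK2 averaged 1644 ± 297 in heavy and 1475 ± 442 in low drinkers, and GRIK4 308 ± 75 in heavy and 324 ± 72.1 in low drinkers. With cohort as a term, the log2 fold changes of the 7 genes ran from -0.28 (GRIK4) to 0.33 (GRIA3), and the limma adjusted p was 0.998 for each. The 7 heavy animals of cohort 5, which has no low drinker, are in the means above but do not enter this contrast. A fold change can therefore differ in sign from the means, as in GRIA2 (0.15) and GRIA3 (0.33), whose means were lower in heavy drinkers. GRIK2 had the smallest unadjusted p, 0.0757, at a log2 fold change of 0.29 (95% interval -0.03 to 0.61). Its log2 difference was 0.06 in cohort 7a (4 heavy and 4 low animals), 0.40 in cohort 7b (1 and 4) and 0.71 in cohort 4 (1 and 7). GRIA3 had the widest gap in cohort 7a at 0.50, against 0.00 in cohort 7b and 0.22 in cohort 4. GRIK4 went the other way in cohort 7a at -0.66, against 0.12 in cohort 7b and 0.22 in cohort 4. For GRIA1 the 95% interval of the fold, 0.86 to 1.18, was the narrowest of the 7, and for GRIA3 it was 0.88 to 1.79.

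**Figure D1:**
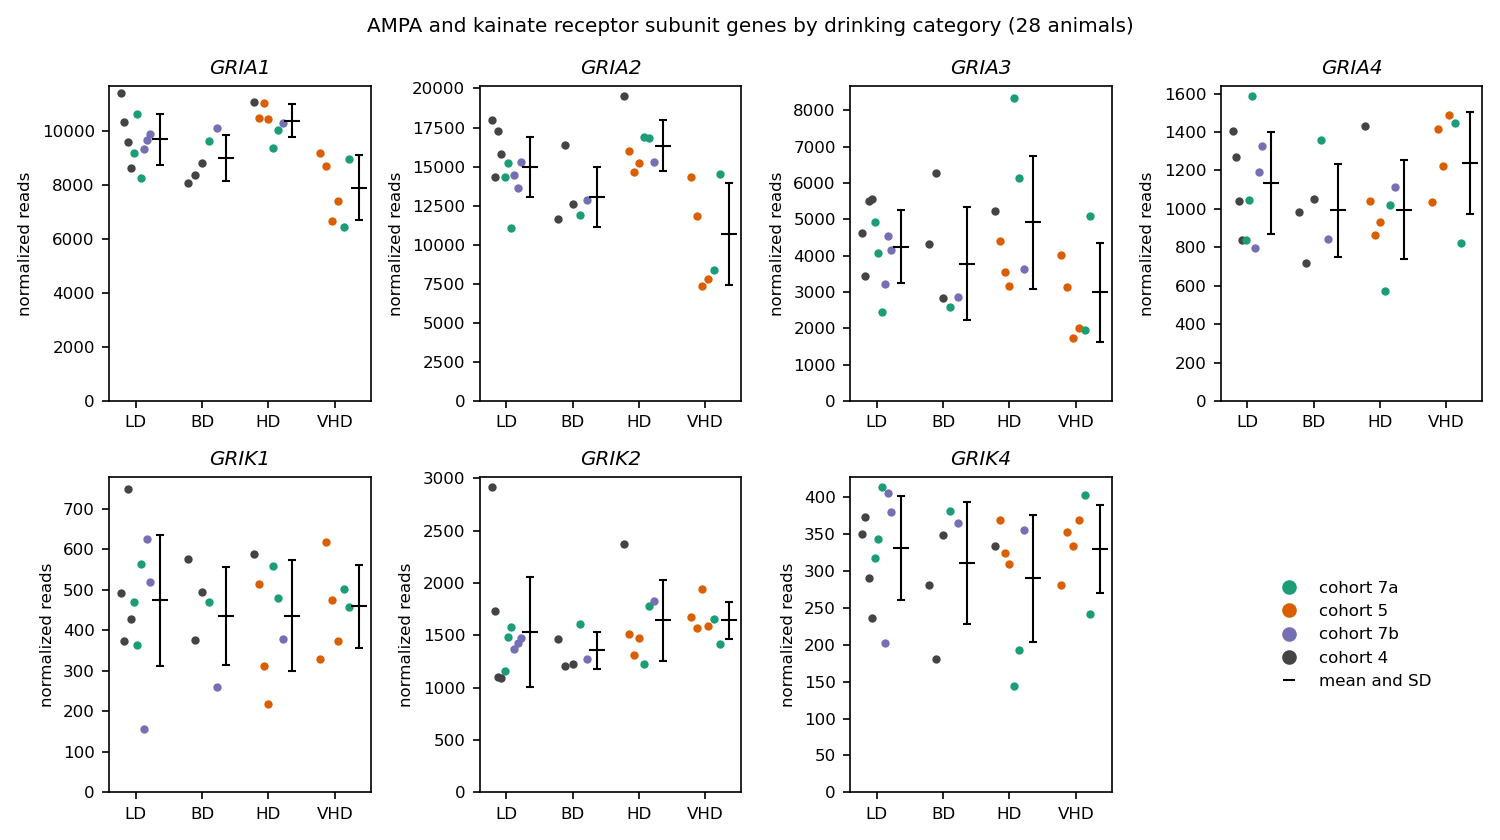
Normalized reads (vertical axes) of the 7 subunit genes in each of 28 animals by drinking category (horizontal axes), coloured by cohort, with the mean and SD of each category beside the points. In VHD, 3 animals lie below every LD animal in GRIA1, GRIA2 and GRIA3, while the categories overlap in the other 4 genes.

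By category the AMPA genes did not move in step with intake. GRIA1 ranged over 8260, 9622 and 11426 normalized reads in LD (lowest, median and highest), and the 5 BD animals had 8097, 8360, 8837, 9632 and 10124. The HD values were 9367, 10458 and 11076 (lowest, median and highest), and the 6 VHD animals had 9208, 8697, 6675, 7412, 6446 and 8965. All 6 VHD animals lay below the LD mean of 9696 ± 939 (n = 10), 3 of them below every LD animal, whereas 6 of 7 HD animals lay above that mean. The BD mean was 9010 ± 853 (n = 5), the HD mean 10396 ± 594 (n = 7) and the VHD mean 7901 ± 1211 (n = 6).

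GRIA2 showed the same order of categories. The LD values ran from 11054 over a median of 14856 to 17995 normalized reads, and the BD animals had 11616, 16382, 12631, 11890 and 12852. HD ran from 14635 over 15994 to 19550, and the VHD animals had 14336, 11812, 7373, 7778, 8349 and 14502. Again all 6 VHD animals lay below the LD mean of 14953 ± 1930, and 3 lay below every LD animal. Those 3 are the animals that were also lowest in GRIA1.

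GRIA3, whose gene lies on the X chromosome, ran from 2441 over 4342 to 5557 normalized reads in LD. The BD animals had 4321, 6265, 2827, 2583 and 2857, and the HD values ran from 3173 over 4395 to 8333. The VHD animals had 4017, 3133, 1725, 2008, 1944 and 5099, so 5 of 6 were below the LD mean of 4243 ± 999 and the same 3 animals were below every LD animal. GRIA4 differed from the other AMPA genes in that VHD had the highest mean, 1239 ± 265, against 1135 ± 267 in LD, and the groups overlapped. GRIA4 averaged 992 ± 242 in BD and 996 ± 259 in HD.

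The kainate genes overlapped between all categories. For GRIK1 the LD animals averaged 474 ± 161 normalized reads, the BD animals 436 ± 121, the HD animals 436 ± 137 and the VHD animals 459 ± 102. Over all 28 animals GRIK1 was lowest in LD replicate 8, at 157, and highest in LD replicate 3, at 748. For GRIK2 the LD mean was 1534 ± 528, the BD mean 1356 ± 174, the HD mean 1645 ± 388 and the VHD mean 1643 ± 173, and the LD range of 1096 to 2913 spanned the values of all the other animals. For GRIK4 the LD mean was 331 ± 70.2, the BD mean 311 ± 82.3, the HD mean 289.8 ± 86.1 and the VHD mean 330.06 ± 59.6.

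In VHD against LD, limma with cohort as a term called 0% of the 13022 genes after adjustment and 8.57% (1116) before it, while edgeR called 0 and DESeq2 4, none of them a subunit gene. GRIA1 had a log2 fold change of -0.32 (95% interval -0.55 to -0.09, a fold of 0.80 with an interval of 0.68 to 0.94), an unadjusted p of 0.00765 and a limma adjusted p of 0.531. GRIA2 had -0.35 (-0.70 to 0.00), an unadjusted p of 0.0486 and an adjusted p of 0.583. These 2 of 7 genes had an unadjusted p below 0.05, where the background was 8.57%, and neither passed the adjusted threshold. GRIA3 had -0.22 (-0.85 to 0.40) and GRIK4 -0.18 (-0.72 to 0.36), whereas GRIA4 had 0.13 (-0.38 to 0.63), GRIK1 0.25 (-0.39 to 0.90) and GRIK2 0.30 (-0.13 to 0.74). In cohort 7a alone, where 2 VHD and 3 LD animals met, the log2 differences were -0.29 for GRIA1, -0.29 for GRIA2 and -0.21 for GRIA3. The unadjusted p of GRIA2 was above 0.05 by edgeR (0.0846), by DESeq2 (0.0829) and by limma without the 3 shallowest libraries (0.0754). A limma fit without the cohort term compares animals across cohorts. There GRIA1 had -0.30 (unadjusted p 0.000769, adjusted 0.104), GRIA2 -0.53 (0.000328, adjusted 0.104) and GRIA3 -0.585 (0.0214, adjusted 0.222).

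The 3 blocks below every LD animal in GRIA1 and GRIA2 were VHD replicates 3, 4 and 5, of cohorts 5 and 7a, and the other 3 VHD animals also lay below the LD mean in both genes. Without these 3 blocks, a setting chosen after seeing the data that takes out the lowest GRIA2 values and so had to move the folds up, the log2 fold change of GRIA1 was -0.12 (95% interval -0.35 to 0.11), that of GRIA2 0.04 and that of GRIA3 0.38. Marker genes of other cell types also stood high in the same 3 blocks. CHAT stood at 1687, 1566 and 1450 normalized reads in VHD replicates 3, 4 and 5, against 0 to 826 (median 75.01) in the other 25 libraries, and SLC5A7, the choline transporter of cholinergic neurons, at 11910, 9650 and 7493 against 25.5 to 4991. The myelin gene MBP stood at 10050, 7554 and 6459 in those 3 against 2568 to 6901 in the others, and the astrocyte gene GFAP at 57090, 60470 and 99940 against 14640 to 69770. VHD replicate 5 also had 21750 normalized reads of AVP, the vasopressin precursor, against at most 69.6 in any library but these 3. RBFOX3, a gene of most neurons, was at 467.8, 574.1 and 492.5 in VHD replicates 3, 4 and 5 and at 565 to 1443 in the others. SNAP25, another neuronal gene, was at 17310, 15090 and 14430 in these 3, within the 11170 to 36790 of the others. Of 12 pan-neuronal genes, 6 had a positive and 6 a negative VHD over LD fold change, with a median log2 value of 0.01.

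Over whole marker lists, the summed level of 12 hypothalamic and basal forebrain genes was 156 to 37072 normalized reads in VHD (median 8092) and 361 to 7254 in LD (median 780). Of its 11 tested members, 9 had a positive VHD over LD fold change, with a median log2 value of 1.16. The 10 oligodendrocyte and myelin genes summed to 72766 to 138390 in VHD (median 102280) and 48375 to 102840 in LD (median 63254), and all 10 had positive fold changes with a median of 0.44, against 0.01 for all genes. In the other direction, the 11 tested striatal medium spiny neuron genes summed to 6944 to 22643 in VHD (median 8502) and 9382 to 62446 in LD (median 16486), and all 11 had negative fold changes with a median of -0.35. The 12 GABAergic genes summed to 16456 to 28261 in VHD (median 24009) and 17427 to 32987 in LD (median 27547), with 7 of 12 negative and a median of -0.27. The medians of the other 7 marker lists were 0.01 to 0.21. None of these marker genes was called by limma. A further fit added the scores of 4 marker lists as covariates: cortical and basolateral glutamatergic neurons, GABAergic neurons, astrocytes, and oligodendrocytes and myelin. The hypothalamic and basal forebrain list and the striatal list were not in that fit. There the log2 fold change was -0.06 for GRIA1, -0.08 for GRIA2 and 0.15 for GRIA3. GRIK2 had 0.66 (95% interval 0.22 to 1.11) there, with an unadjusted p of 0.00547 and a limma adjusted p of 0.997. The part of these other cell types in the VHD values was not tested further.

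**Figure D2:**
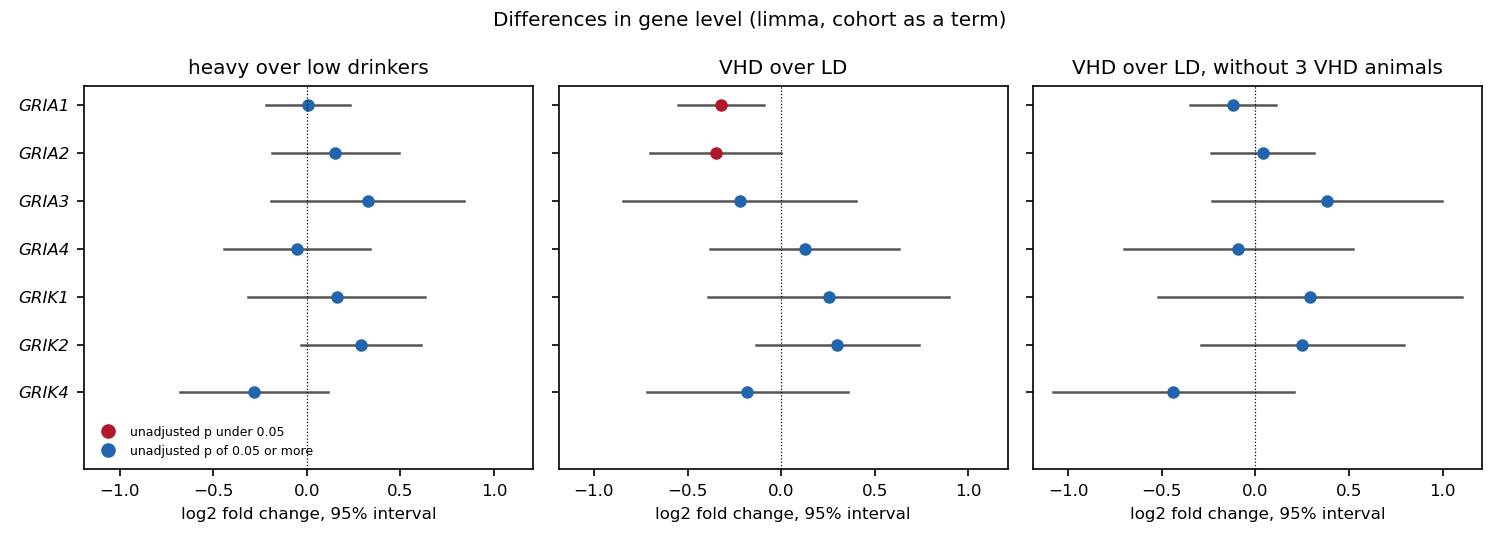
Log2 fold changes (horizontal axes) with 95% intervals (lines) of the 7 subunit genes (vertical axis) from limma with cohort as a term, for heavy over low drinkers, VHD over LD, and VHD over LD without VHD replicates 3, 4 and 5. GRIA1 and GRIA2 have an unadjusted p below 0.05 (red) only in the middle panel, and no gene has an adjusted p below 0.05 in any panel.

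HD against LD gave fold changes in the other direction for the AMPA genes, with log2 values of 0.09 for GRIA1, 0.25 for GRIA2 (95% interval -0.04 to 0.54) and 0.41 for GRIA3 (-0.10 to 0.93). GRIA4 had -0.20, GRIK1 0.07, GRIK2 0.22 and GRIK4 -0.35. The background in this comparison was 0% of genes called by limma after adjustment and 3.96% (516) before it, edgeR called 0 genes and DESeq2 1, and no subunit gene had an unadjusted p below 0.05. VHD and HD were set against the same LD animals, and the difference between the 2 folds was not tested. In BD against LD all 7 genes had negative values between -0.29 and -0.08, with 0% of genes called by limma and by the other tools, 3.52% (458) at an unadjusted p below 0.05, and no subunit gene among them. The trend from LD to VHD had slopes of -0.09 to 0.09 on the log2 scale per category step, with 0% of genes called after adjustment, 4.85% (632) before it and no subunit gene among them.

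Between cohorts, no subunit gene was called by the limma F test with category as a term. That test called 0% of genes after adjustment and gave 9.41% (1225) an unadjusted p below 0.05, against 0 of the 7 subunit genes. edgeR called 0 genes and DESeq2 19, none of them a subunit gene. GRIA3 averaged 4440 ± 2155 normalized reads in cohort 7a (n = 8), 3141 ± 982 in cohort 5 (n = 7), 3678 ± 680 in cohort 7b (n = 5) and 4717 ± 1157 in cohort 4 (n = 8). GRIK1 averaged 483 ± 63.6 in cohort 7a, 406 ± 137 in cohort 5, 388 ± 189.7 in cohort 7b and 509 ± 126 in cohort 4, and had the smallest unadjusted p of the 7, 0.107. The GRIA1 means lay between 9069 ± 1275 in cohort 7a and 9863 ± 387 in cohort 7b. GRIA2 averaged from 12449 ± 3572 in cohort 5 to 15704 ± 2698 in cohort 4, where 4 of the 7 animals of cohort 5 and none of cohort 4 were VHD. The adjusted p-values of the 7 genes were 0.601 to 0.98.

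Of the 21 pairs of subunits, 7 varied together or against each other over the blocks at an adjusted permutation p below 0.05, 5 of them positive. Across the 28 animals, GRIA1 and GRIA2 varied together with a Pearson r of 0.82 (Spearman rho 0.64), and GRIA2 and GRIA3 with an r of 0.84 (rho 0.81). For both pairs the permutation p was 1e-05, the smallest that 100000 resamples give, and 7e-05 after Benjamini-Hochberg adjustment over the 21 pairs. Within cohorts 7a, 5 and 4 the r of GRIA1 and GRIA2 was 0.86, 0.96 and 0.67, and that of GRIA2 and GRIA3 0.93, 0.95 and 0.63. Cohort 7b was too small for a value of its own. Leaving out the 2 animals farthest from the median gave 0.68 for the first pair and 0.78 for the second, and leaving out VHD replicates 3, 4 and 5 gave 0.56 and 0.71.

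GRIA4 varied with 2 of the 3 kainate genes. GRIA4 and GRIK4 had an r of 0.78 (rho 0.78, adjusted permutation p 7e-05), with 0.85, 0.56 and 0.90 within cohorts 7a, 5 and 4 and 0.68 without the 2 farthest animals. GRIA4 and GRIK2 had an r of 0.63 (rho 0.68, permutation p 0.00037, adjusted 0.00155), with 0.72, 0.52 and 0.82 within the 3 cohorts and 0.65 without the 2 farthest animals. With GRIK1 it had an r of 0.35 (rho 0.40, permutation p 0.0644, adjusted 0.135), and GRIK2 and GRIK4 had one of 0.33 with each other (rho 0.39, p 0.0899, adjusted 0.172). GRIA3 ran against GRIK4 and GRIA4: r was -0.65 with GRIK4 (rho -0.62, permutation p 0.00015, adjusted 0.000787) and -0.58 with GRIA4 (rho -0.53, p 0.00105, adjusted 0.00367). Within cohorts 7a, 5 and 4 it was -0.92, -0.28 and -0.71 with GRIK4, and -0.92, -0.59 and -0.38 with GRIA4. Without the 2 farthest animals these were -0.67 and -0.55.

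A weaker relation shrank when a few blocks with extreme values were left out. GRIA1 and GRIA3 had an r of 0.50 (rho 0.28, permutation p 0.00745, adjusted 0.0224), but 0.20 without the 2 farthest animals and -0.01 without VHD replicates 3, 4 and 5. GRIA1 and GRIA4 changed sign between cohorts, at -0.43 in cohort 7a, -0.78 in cohort 5 and 0.88 in cohort 4, and pooled had an r of -0.15 (rho -0.04, permutation p 0.443, adjusted 0.547). GRIK1 was related to no other subunit at an adjusted p below 0.05. Libraries, cohorts and tissue make-up are shared by all points.

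**Figure D3:**
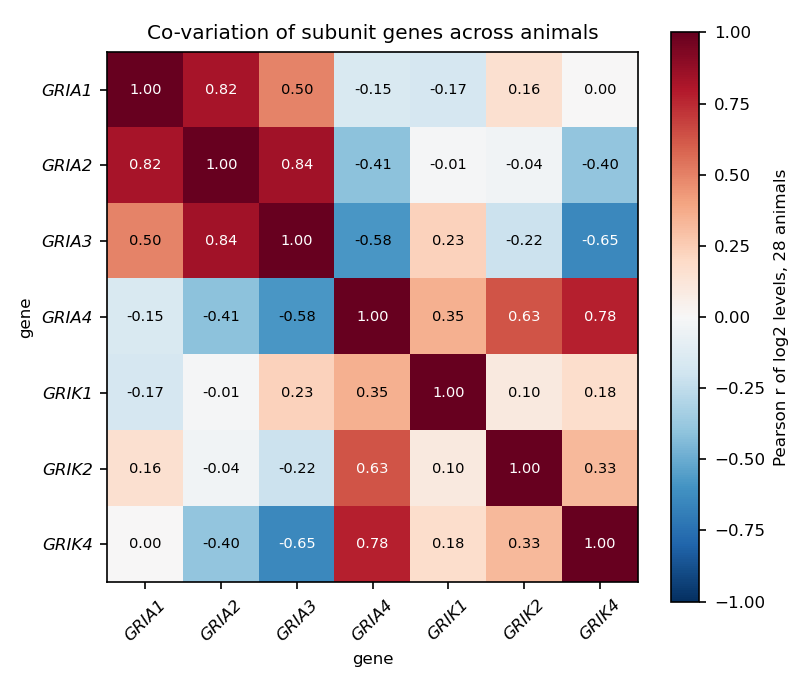
Pearson r of the log2 levels of each pair of subunit genes over 28 animals, as numbers and colours. GRIA2 is positive with GRIA1 (0.82) and GRIA3 (0.84), GRIA4 is positive with GRIK2 (0.63) and GRIK4 (0.78), and GRIA3 is negative with GRIA4 (-0.58) and GRIK4 (-0.65).

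The levels were also set against marker genes of the blocks' cells. Of 77 relations between 7 subunit genes and 11 marker lists, 37 had an adjusted permutation p of the Pearson r below 0.05. GRIA1 had an r of -0.65 with the oligodendrocyte score (rho -0.53, permutation p 0.00026, adjusted 0.00125). That r was -0.68, -0.88 and -0.22 within cohorts 7a, 5 and 4 and -0.48 without the 2 farthest animals. GRIA1 also had 0.50 with the medium spiny neuron score (adjusted permutation p 0.0192). It had -0.46 with the hypothalamic and basal forebrain score (0.0313) and -0.45 with the astrocyte score (0.0334). GRIA3 had an r of -0.85 with the astrocyte score (rho -0.84, permutation p 1e-05, adjusted 0.000257), with -0.95, -0.52 and -0.92 within cohorts 7a, 5 and 4 and -0.84 without the 2 farthest animals. With the cortical and basolateral glutamatergic score GRIA3 had an r of 0.69 (rho 0.76, permutation p 4e-05, adjusted 0.000385), with 0.96, 0.54 and 0.56 within the same cohorts and 0.73 without the 2 farthest. It also had -0.83 with the hypothalamic and basal forebrain score and -0.84 with the oligodendrocyte precursor score (adjusted permutation p 0.000257 for each). GRIA2 had an r of -0.70 with the oligodendrocyte score (rho -0.59, permutation p 7e-05, adjusted 0.000415). That r was -0.74 in cohort 7a, -0.94 in cohort 5 and -0.05 in cohort 4. It was -0.79 without the 3 shallowest libraries and -0.70 with cohort means removed. Without the 2 farthest animals it was -0.51 and without VHD replicates 3, 4 and 5 -0.39, but both settings take out extreme GRIA2 values and narrow its range. Other relations of GRIA2 moved less between cohorts and without those 3 blocks. Its r was -0.71 with the oligodendrocyte precursor score (permutation p 6e-05, adjusted 0.000415) and -0.70 with the astrocyte score (permutation p 4e-05, adjusted 0.000385). Within cohorts 7a, 5 and 4 these were -0.68, -0.83 and -0.51, and -0.93, -0.61 and -0.53. Without VHD replicates 3, 4 and 5 they were -0.58 and -0.54. GRIA4 had an r of 0.70 with the hypothalamic and basal forebrain score (rho 0.72, permutation p 2e-05, adjusted 0.000308), with 0.82, 0.84 and 0.61 within the cohorts and 0.63 without the 2 farthest. GRIK4 had an r of 0.72 with the GABAergic score (rho 0.62, permutation p 5e-05, adjusted 0.000385), but -0.37 in cohort 5 against 0.81 in cohort 7a and 0.64 in cohort 4, and 0.57 without the 2 farthest. GRIK1 had an r of -0.74 with the striatal medium spiny neuron score (rho -0.50, permutation p 4e-05, adjusted 0.000385), with -0.55, -0.79 and -0.18 within cohorts 7a, 5 and 4 and -0.52 without the 2 farthest. By Pearson r, GRIK2 passed with 1 of the 11 lists, the pan-neuronal genes, at -0.54 (rho -0.41, permutation p 0.00301, adjusted 0.0101). That r was 0.59 in cohort 5 against -0.55 in cohort 7a and -0.84 in cohort 4, and -0.37 without the 2 farthest. By Spearman rho this relation had an adjusted permutation p of 0.0661. The GABAergic score (rho 0.49, adjusted 0.0306) and the astrocyte score (rho 0.46, adjusted 0.0429) passed by rho.

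The genes most like each subunit were found among 11248 genes by the Pearson r of log2 levels over the 28 animals, as a description. For GRIA3 they were FBXW7, a ubiquitin ligase subunit (0.98), FAM49A (0.96) and the adenylate kinase AK5 (0.95), the closest match of any subunit. For GRIA2 they were ANAPC5 (0.92), the synaptic exchange factor KALRN (0.90) and MYCBP2 (0.90). For GRIA1 they were the sialyltransferase ST8SIA3 (0.91), the GABA-A receptor subunit GABRB1 (0.90) and the synaptotagmin SYT16 (0.89). TMEM255A was among the 3 closest to both GRIA4 (0.85) and GRIK4 (0.91), beside EPM2AIP1 (0.85) and C8orf42 (0.84) for GRIA4, and VWA5A (0.91) and the calcitonin receptor CALCR (0.89) for GRIK4. GRIK1 was most like the oestrogen receptor ESR1 (0.87), the histamine receptor HRH1 (0.83) and LRRFIP1 (0.80). GRIK2 was most like ZNF451 (0.86), the chromatin remodeller CHD9 (0.84) and C7orf63 (0.84).

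The other genes of the receptor pathway were taken as 7 lists of 77 genes, of which 66 were tested. In heavy against low drinkers 0 of the 66 had an unadjusted p below 0.05, where the background was 4.18%. The median log2 fold change was -0.08 in 10 AMPA auxiliary subunits, -0.03 in 10 assembly factors, 0.12 in 7 kainate auxiliary subunits and partners, 0.04 in 18 scaffolds and trafficking proteins, -0.04 in 12 kinases and phosphatases, 0.01 in 3 RNA editing genes and 0.10 in 7 NMDA and delta receptor subunits, against 0.00 in all genes. The smallest p of all was that of the adhesion protein CDH2, 0.0658, at a log2 fold change of 0.12 (95% interval -0.01 to 0.25). In the other lists the smallest p belonged to CACNG5, an auxiliary subunit related to stargazin (-0.45, p 0.15), CPT1C, which binds AMPA receptors in the endoplasmic reticulum (-0.13, p 0.252), the scaffold DLG2 (0.19, p 0.11), the protein kinase A subunit PRKACB (-0.09, p 0.214), the editing enzyme ADARB1 (0.16, p 0.104) and the NMDA receptor subunit GRIN2B (0.23, p 0.192). The limma adjusted p was 0.998 in each.

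In VHD against LD, 7 of the 66 pathway genes had an unadjusted p below 0.05, near the background of 8.57%, and none was called by limma. The RNA editing enzyme ADARB1, which edits the GRIA2 transcript, averaged 905 ± 137 normalized reads in VHD and 721 ± 103 in LD, a log2 fold change of 0.35 (unadjusted p 0.00707, adjusted 0.531). Its catalytically inactive relative ADARB2 averaged 814 ± 254 in VHD and 499 ± 206 in LD (0.78, p 0.0356). The calcineurin subunit PPP3CA averaged 9900 ± 3410 in VHD and 14200 ± 4340 in LD (-0.63, p 0.011), and the striatal phosphatase PTPN5 2000 ± 628 in VHD and 2760 ± 916 in LD (-0.58, p 0.0305). CPT1C (-0.36, p 0.0143), the obligatory NMDA receptor subunit GRIN1 (-0.41, p 0.0277) and the cornichon CNIH2 (-0.43, p 0.0355) made up the rest, and CNIH2 was chosen after its values were seen. The median log2 fold change was -0.11 in AMPA auxiliary subunits, -0.07 in assembly factors, -0.05 in kainate auxiliary subunits and partners, -0.04 in scaffolds and trafficking proteins, -0.22 in kinases and phosphatases and -0.19 in NMDA and delta receptor subunits, against 0.01 in all genes. The remaining editing gene, ADAR, had 0.00 (95% interval -0.23 to 0.23). The striatal marker genes, with a median of -0.35, stand beside the values of PTPN5 and PPP3CA, and their part in them was not tested.

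Between cohorts, 10 of the 66 pathway genes had an unadjusted p below 0.05, where the background was 9.41%, and none was called by limma. GRIN1 had the smallest p, 0.00066 (adjusted 0.33), with means of 7520 ± 1090 normalized reads in cohort 7a, 8560 ± 1780 in cohort 5, 9530 ± 1470 in cohort 7b and 6390 ± 1520 in cohort 4. Its adjusted p was 0.0295 without LD replicate 2, so that 1 library of cohort 4 decided the call. CPT1C (p 0.00358), the auxiliary subunit CACNG4 (p 0.00629) and EPB41L1, which links GRIA1 to the cytoskeleton (p 0.00721), also had their lowest mean in cohort 4. Cohort 4 held the oldest animals but also the 3 shallowest libraries, and 7 of its 8 animals were low drinkers. EPB41L1 averaged 9020 ± 649 in cohort 7a, 9170 ± 714 in cohort 5, 9560 ± 852 in cohort 7b and 7720 ± 952 in cohort 4. ADARB1 (p 0.0103) averaged 890 ± 146, 795 ± 106, 752 ± 80.1 and 687 ± 72.5 in the same order. The other 5 were SHISA9, SNX27, DLG2, PRKCA and GRID1, with p-values of 0.0261 to 0.0415. SHISA9, SNX27 and PRKCA were lowest in cohort 4 too, but DLG2 was lowest in cohort 5 (4600) and GRID1 in cohort 7a (1320).

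At the level of single exons, no exon of a subunit gene was called in any comparison. In heavy against low drinkers, 0% of 112706 exons were called and 3.94% had an unadjusted p below 0.05, against 7 of 110 subunit exons, 3 of them in GRIK2 (higher) and 2 in GRIK4 (lower). In VHD against LD, a test added after seeing the gene values, 0% were called and 5.48% had an unadjusted p below 0.05, against 15 of 110 subunit exons. Of those, 9 were among the 16 exons of GRIA1 and 5 among the 16 of GRIA2, all with lower values in VHD, and 1 was in GRIK4. The median log2 fold change was -0.35 over the exons of each of GRIA1 and GRIA2, with 15 of 16 negative in both genes, so the lower values were spread along the transcript. Between cohorts 0% were called and 6.97% had an unadjusted p below 0.05, against 6 of 110. Exons of a gene were measured in the same animals and are not independent, so these counts do not test an excess over the background.

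Relative exon use, the change of an exon against the rest of its gene, was tested by limma's diffSplice. In heavy against low drinkers it called 0.112% of 109212 exons and, by gene, 0.0917% of 9817 genes, and no exon and none of the 7 subunit genes were among them. The share called between cohorts was 0.141% of exons for cohort 4 against 7a, 0.0989% for 5 against 7a and 0.0906% for 7b against 7a, again without a subunit exon. The subunit exon with the smallest p in heavy against low was exon 6 of GRIA4 (chromosome 11, 98015834 to 98015887, in the coordinates of the exon table), 54 bases long. Its relative log2 change was 1.06 (unadjusted p 0.000151, adjusted 0.102). It had 4 to 60 normalized reads in heavy and 5 to 54 in low drinkers. For cohorts the smallest p was that of the same exon in cohort 5 against 7a, -0.93 (p 0.00298, adjusted 0.769), followed by exon 5 of GRIA2 (chromosome 4, 157221079 to 157221132), also 54 bases long, with 0.53 in cohort 4 against 7a (p 0.00436, adjusted 0.683).

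The values behind those exons were then looked at, after the results were known. Each of the 7 subunit genes had a listed exon of exactly 54 bases, while 6.66% of 6170 genes with at least 10 listed exons had one. In GRIA2, GRIA3 and GRIA4 its share of the gene's reads fell into 2 separate levels, and individual animals were on one or the other. In GRIA1 2 animals lay below the other 26. The ranges of the shares of the exons before and after it overlapped between the 2 sets of animals in all 4 AMPA genes. In GRIA3, however, the exon after it had a median share of 4.81% in the 11 animals of the high level and 3.56% in the 17 of the low level. In GRIA4 the exon after it went the other way, with 7.46% in the 5 animals of the high level and 8.93% in the 23 others.

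In GRIA2, 5 animals stood apart. In these, VHD replicate 3, HD replicate 5 and LD replicates 5, 6 and 10, the 54-base exon held 1.02% to 1.25% of the gene's reads, and in the other 23 animals 2.53% to 3.09%. The counts behind the low level were 57 of 5595 reads in VHD replicate 3 (95% Wilson interval 0.787% to 1.32%, for counting error only) and 276 of 22142 in LD replicate 10 (1.11% to 1.40%), and behind the lowest of the other animals 198 of 7831 in VHD replicate 4 (2.20% to 2.90%). The exon before it held 5.74% to 6.39% in the 5 animals and 5.41% to 7.04% in the 23, and the exon after it 3.5% to 4.04% and 3.64% to 5.01%. By category the low level held 3 of 10 LD, 0 of 5 BD, 1 of 7 HD and 1 of 6 VHD animals, and by cohort 3 of 8 in cohort 7a, 1 of 7 in cohort 5, 1 of 5 in cohort 7b and 0 of 8 in cohort 4.

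GRIA3 split the animals more evenly. The 54-base exon (chromosome X, 116933732 to 116933785) held 0.528% to 1.05% of the reads in 17 animals and 2.41% to 3.30% in 11. Those 11 were BD replicate 1, HD replicates 6 and 7, LD replicates 2, 3, 5, 6 and 7, and VHD replicates 1, 2 and 3, so 5 of 10 LD, 1 of 5 BD, 2 of 7 HD and 3 of 6 VHD animals. The highest of the low level, 46 of 4439 reads in HD replicate 3, had an interval of 0.778% to 1.38%, and the lowest of the high level, 13 of 539 reads in the shallow BD replicate 1, one of 1.41% to 4.08%. As males, the animals carry a single copy of this X-linked gene.

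In GRIA1 the 2 animals below the rest were LD replicate 9 and VHD replicate 1, at 0.952% and 0.988%, against 1.71% to 2.53% in the other 26. GRIA4 had the thinnest data: 5 animals, LD replicate 1, BD replicate 1, HD replicates 1 and 7 and VHD replicate 5, were at 3.84% to 4.40%, and the other 23 at 0.403% to 1.74%. The high level rested on 72 of 1728 reads in VHD replicate 5 (3.32% to 5.21%) and 53 of 1202 in HD replicate 7 (3.39% to 5.72%), but 5 of 123 in BD replicate 1 (1.75% to 9.16%), and 3 of the 5 were the shallowest libraries. HD replicate 7 is the only heavy animal of cohort 7b and HD replicate 1 the only one of cohort 4, and both were on the high level, as was 1 of the 4 heavy animals of cohort 7a. Without the 3 shallowest libraries the relative change of this exon in heavy against low drinkers was 0.97 (adjusted p 0.286).

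Different genes split the animals differently. VHD replicate 3 was on the low level of GRIA2 and the high level of GRIA3, and LD replicates 5 and 6 were too, whereas HD replicate 5 and LD replicate 10 were low in both. The widest step between neighbouring shares of the 54-base exon was 2.03 times in GRIA2, 2.3 times in GRIA3 and 2.2 times in GRIA4. It was smaller in GRIA1, at 1.73 times, and in GRIK1, at 1.67 times, and in both genes it parted 2 animals from the other 26. In those 2 animals of GRIK1, HD replicates 1 and 3, the exon had only 2 normalized reads. In GRIK2 the step was 1.25 times and in GRIK4 1.30 times. The count over all exons that follows used values with 1 added. On that measure the step was 2.03 in GRIA2, 2.26 in GRIA3, 2.04 in GRIA4, 1.72 in GRIA1 and 1.39 in GRIK1. Over the table, a step of at least 2 times with at least 2 animals on each side was found in 0.664% of 77156 exons and in 4.36% of the 298 exons of 54 bases, 13 exons in all, of which 3 are those of GRIA2, GRIA3 and GRIA4. Exons of 30 to 70 bases without the 54-base ones had such a step in 2.85% of 7232 cases and exons of 100 to 120 bases in 0.416% of 11299. The cause of the 2 levels was not tested.

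**Figure D4:**
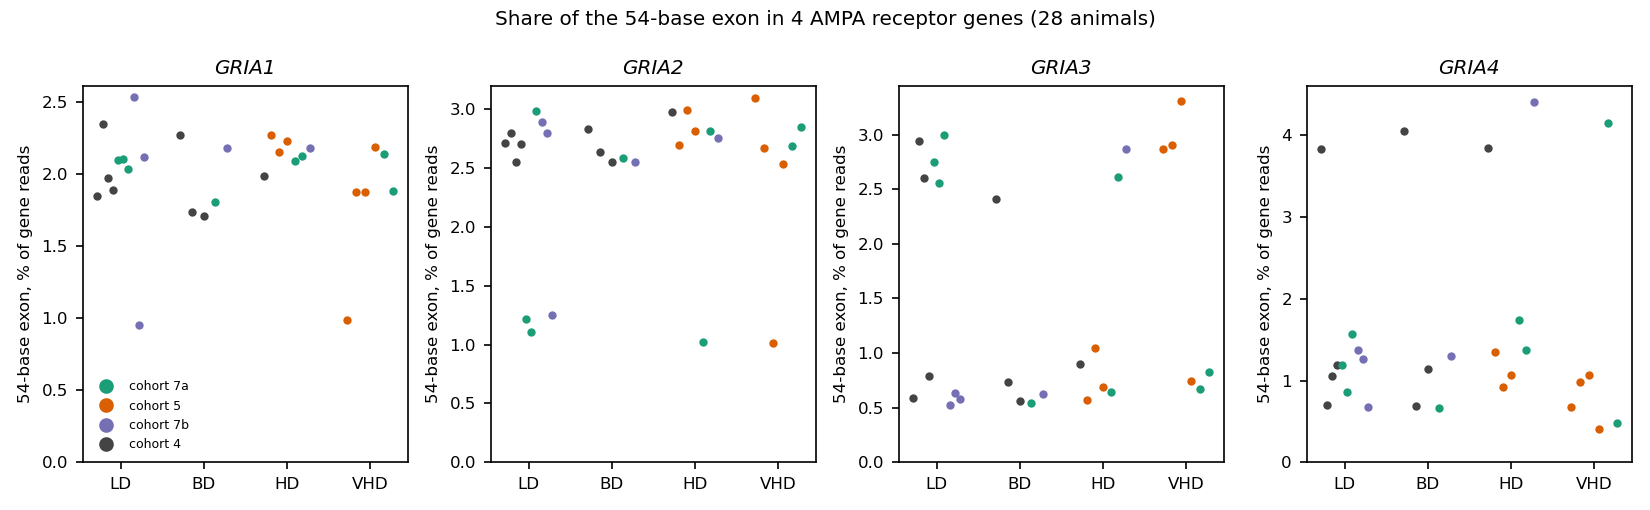
Share of a gene's reads in its 54-base exon (vertical axes, percent) in GRIA1, GRIA2, GRIA3 and GRIA4 for each of 28 animals by drinking category (horizontal axes), coloured by cohort. An empty band parts the animals in each gene, with 2 animals below it in GRIA1, 5 in GRIA2, 17 in GRIA3 and 23 in GRIA4, and both sides hold animals of several categories.

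The alternative exon pair was read as 2 neighbouring exons of equal length, exons 14 and 15 in the table, and the share of the first, at the lower coordinate, in their sum was taken. Both exons were listed for GRIA2 (chromosome 4, 157267971 to 157268085 and 157268499 to 157268613) and GRIA3 (chromosome X, 117059489 to 117059603 and 117074331 to 117074445). In GRIA1 the second was listed as longer than the first (chromosome 5, 151609131 to 151609245 and 151616680 to 151616814), and it was added after seeing the table. Which exon of a pair is flip and which is flop was not read from sequence. The second exon held most of the reads in all 3 genes. The first held 24.3 ± 3.98% in GRIA1 (SD, n = 28), 28.0 ± 6.42% in GRIA2 and 25.5 ± 9.50% in GRIA3, where BD replicate 1 had 0 of 11 reads (95% Wilson interval up to 25.9%).

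In GRIA2 the first exon held 24.2%, 27.2%, 41.8%, 33.4%, 43.5% and 27.4% in VHD replicates 1 to 6, with Wilson intervals of 35.9% to 48.0% in replicate 3 and 39.0% to 48.0% in replicate 5. The LD mean was 26.4 ± 4.97%, the BD mean 29.8 ± 3.07%, the HD mean 24.9 ± 6.66% and the VHD mean 32.9 ± 8.14%. The LD, BD, HD and VHD means were 23.4%, 26.9%, 22.5% and 25.8% for GRIA1, and 25.4%, 22.1%, 25.5% and 28.8% for GRIA3. Heavy drinkers averaged 28.6 ± 8.19% and low drinkers 27.5 ± 4.62% in GRIA2, 24 ± 3.42% and 24.6 ± 4.52% in GRIA1, and 27 ± 9.85% and 24.3 ± 9.33% in GRIA3. With labels permuted within cohorts 7a, 7b and 4 (exact two-sided permutation test, 2800 relabellings), the log2 ratio of the pair differed by 0.10 in GRIA2 (p = 0.7064), 0.35 in GRIA3 (p = 0.3825) and 0.05 in GRIA1 (p = 0.7496), 3 tests none of which passed. The F statistic over cohorts had permutation p-values of 0.4027 in GRIA2, 0.8899 in GRIA3 and 0.4108 in GRIA1.

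The pair ratio of GRIA2 went with the make-up of the block. It had an r of 0.73 with the oligodendrocyte score (rho 0.68, permutation p 2e-05, adjusted over 33 relations 0.00066), with 0.75, 0.96 and 0.59 within cohorts 7a, 5 and 4, 0.62 without the 2 farthest animals and 0.58 without VHD replicates 3, 4 and 5. With the level of GRIA2 itself the ratio had an r of -0.57 (rho -0.43, permutation p 0.00159, adjusted over 3 relations 0.00477). That r was -0.80, -0.96 and 0.06 within the same cohorts and -0.44 without the 2 farthest. It was -0.73 without the 3 shallowest libraries and -0.68 with cohort means removed. Without VHD replicates 3, 4 and 5 it was -0.18, but these are the lowest GRIA2 values, so leaving them out narrows the range of the level. In GRIA1 the level and the ratio had an r of -0.49 (rho -0.43, permutation p 0.0109, adjusted 0.0163), with -0.81, -0.52 and -0.54 within the cohorts, -0.34 without the 2 farthest and -0.44 without VHD replicates 3, 4 and 5. In GRIA3 the r was -0.27 (rho -0.43, permutation p 0.168), with -0.70, -0.88 and 0.00 within the cohorts. The ratios of GRIA1 and GRIA2 had an r of 0.56 (rho 0.57, permutation p 0.00195, adjusted over 3 relations 0.00585), with 0.68, 0.71 and 0.32 within cohorts 7a, 5 and 4 and 0.51 without the 2 farthest. The ratio of GRIA1 had an r of -0.61 with the medium spiny neuron score (rho -0.60, permutation p 0.00154, adjusted over the 33 relations 0.0254), with -0.39, -0.68 and -0.64 within the cohorts and -0.63 without the 2 farthest. The part of cell types in the ratios was not tested further.

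**Figure D5:**
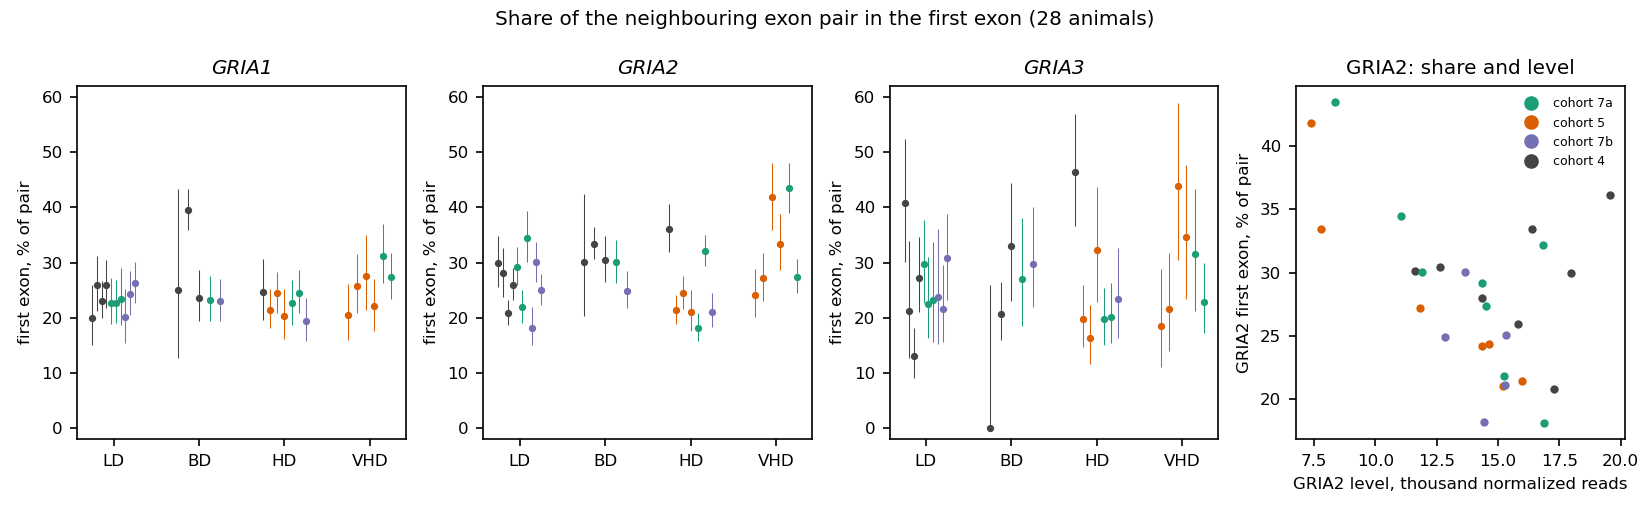
Share of the first exon in the sum of the alternative exon pair (vertical axes, percent, with 95% Wilson intervals for counting error) in GRIA1, GRIA2 and GRIA3 for each of 28 animals by drinking category, coloured by cohort, and, on the right, that share in GRIA2 against the GRIA2 level (horizontal axis, normalized reads divided by 1000). VHD replicates 3 and 5, at 41.8% and 43.5%, are the highest in GRIA2 and lie at the low end of its level.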

How the data were processed

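Ribosomal RNA was removed before the 28 stranded libraries were made, per the labels' protocols. CASAVA, FastQC, STAR 2.3.0e and edgeR are named without their order, per the submitters' processing notes. Which genome build and annotation were used is not given in the sources used here. Per gene, the authors deposited a signal, the read counts multiplied by 1 upper-quartile factor per library, and 100% of values lay within 0.02 of a whole number of reads. Per exon they deposited a score, the same kind of value in whole numbers. The exons of a subunit gene summed to 0.99 to 1.01 times its gene value. Each table has 2 more columns that were not used here. Nothing pairs the animals across categories, and 1 library stands for 1 animal.

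Genes at 10 or more in 5 or more libraries (13022), and exons by the same rule (112706), entered limma 3.58.1 (R 4.3.3, trended prior variance) as log2(value + 1), and folds are on that scale. Cohort was a term for categories, and category for cohorts. Two-sided p-values had the Benjamini-Hochberg adjustment over all features tested, with a threshold of 0.05. The recovered counts also went through edgeR 4.0.16 by quasi-likelihood and DESeq2 1.42.0. diffSplice tested relative exon use in the 9817 genes that had 3 or more tested exons. Marker scores average the centred log2 values of a list. Correlations have permutation p-values from 100000 resamples, and Wilson intervals are at 95% and cover counting error only. The procedures were checked on simulated data.

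The members, lists, tests and rule for named genes were chosen with earlier results of these data known. The rule took all members, the 3 genes most like each (mean of at least 50 normalized reads), up to 3 genes of each pathway list by p in heavy against low drinkers and between cohorts, and of each member the exon with the smallest p. Pathway genes with an unadjusted p below 0.05 in VHD against LD or between cohorts, and 1 gene of each list in heavy against low drinkers, are printed. The alternatives were other pseudocounts and filters, TMM factors, edgeR, DESeq2, no cohort term, age in its place, marker scores as covariates, cohort 7a alone, and leaving out each library or the 3 shallowest. The VHD against LD fits without the 3 libraries lowest in GRIA2 and with marker scores, the exon test of VHD against LD, the GRIA1 exon pair and the 54-base exons were added after seeing the data.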

Additional observations from a re-analysis of the deposited data

Results flagged for a closer look

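Of 80 groups of subunit values, exon pair shares included, 5 held 1 animal that stood apart from the rest of its group by Dixon's criterion, and chance gives about 1 in 20. GRIA2 in BD replicate 2 was 16381.6 normalized reads, with 12851.9 as the next highest of the 5 BD animals. GRIK2 in LD replicate 1, 1 of the 3 shallowest libraries, was 2913.2, with 1729.0 next among the 10 LD animals. GRIK4 in LD replicate 8 was 202.4, the lowest of the 5 animals of cohort 7b, with 354.7 next. The first exon of the GRIA1 pair held 39.5% in BD replicate 2, the highest share both among the 5 BD animals, where 25% came next, and among the 8 animals of cohort 4, where 26% came next.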

How the results depend on the processing

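No subunit gene or exon was called under any alternative run. DESeq2 called 1 gene in heavy against low drinkers, 4 in VHD and 1 in HD against LD and 19 between cohorts, against 0 by limma, and age in place of cohort 1 in HD against LD. With any 1 library left out there were 0 to 1 genes in VHD and in HD against LD and 0 to 40 between cohorts, the 40 without LD replicate 2. Exon use in heavy against low drinkers gave 122 exons, 76 with a filter of 50 and 67 with a pseudocount of 8, and 9 genes, 4 with that pseudocount and 14 without the 3 shallowest libraries. For cohort 4 against 7a it gave 154 exons, 76 with that filter and 76 with that pseudocount, and 12 genes, 6 and 7. For 5 against 7a it gave 108 exons, 71 with that pseudocount and 223 without the shallowest, and 11 genes, 7 with the filter, 5 with the pseudocount and 25 without the shallowest. For 7b against 7a it gave 99 exons, 61 with the filter and 200 without the shallowest, and 5 genes, 0, 3 and 20 under the 3 settings. The small folds of heavy against low drinkers turned sign: GRIA1 to -0.0703 without the shallowest, -0.049 without cohort, -0.0341 with age and -0.13 in cohort 7a. Without cohort GRIA2 was -0.11, GRIA3 -0.10, GRIA4 0.0183 and GRIK1 -0.0164, and with age GRIA2 was -0.0467, GRIA3 -0.0299, GRIA4 0.0299 and GRIN2B -0.0003, and GRIA4 was 0.17 with marker scores. In VHD against LD without the 3 libraries lowest in GRIA2, GRIA2 was 0.0391, GRIA3 0.38 and GRIA4 -0.0914, GRIA3 was 0.15 with marker scores, and GRIK4 0.0079 without cohort. GRIK1 in HD against LD was -0.0035 without the shallowest, -0.096 without cohort and -0.0669 with age. Exon 14 of GRIA3 was at -0.29 in relative use without the shallowest, where the pair ratio of GRIA2 was -0.0351 and that of GRIA3 -0.19 (-0.18 in cohort 7a). GRIA1 and GRIA3 had an r of -0.0054 without the 3 libraries lowest in GRIA2. With 1 library left out, heavy against low ran from -0.0703 to 0.0893 for GRIA1 and -0.22 to 0.0863 for GRIA4, VHD against LD from -0.47 to 0.12 for GRIA3 and -0.0113 to 0.34 for GRIA4, HD against LD from -0.0589 to 0.16 for GRIK1, BD against LD from -0.20 to 0.0804 for GRIK4, and the pair ratio from -0.0309 to 0.15 for GRIA1, -0.0475 to 0.25 for GRIA2 and -0.19 to 0.50 for GRIA3. GRIA1 and GRIA2 in VHD against LD kept a negative fold with any 1 library left out (-0.43 to -0.23 and -0.53 to -0.19). The cause of these moves was not tested. No paired analysis was possible because replicate numbers follow accession order. Depth limits the 54-base exons of GRIA4 and the kainate genes, which rest on few reads.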
